A study of Homo sapiens with 4 samples.

Results

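The genes for the protein components of the cytosolic ribosome were examined for chromatin accessibility at their promoters in HEK293T, a human line with an abnormal chromosome number that was derived from embryonic kidney, with and without MORC2, a DNA-binding ATPase linked to gene silencing. Members were the protein-coding genes whose symbol is RPL or RPS, a number, and optionally A, X or L and further digits. RPLP0, RPLP1, RPLP2 and RPSA were added, and RPL10L was left out. This rule found 83 genes among the 28775 rows of the promoter table, 51 of the large ribosomal subunit and 32 of the small subunit. The rule uses symbols only and no measured value, although it was set when earlier results of these data were known. The assay was ATAC-seq, which uses a transposase to insert sequencing adapters into DNA that is not covered by nucleosomes, and each value is a count of fragments in the window around the start of a gene. There were 2 libraries of wild-type (WT) HEK293T cells and 2 libraries of MORC2 knockout (KO) HEK293T cells. The KO cells were bulk pools electroporated with Cas9 protein and a guide RNA against MORC2, sgRNA 1 for KO replicate 1 and sgRNA 2 for KO replicate 2, so guide and replicate cannot be told apart and unedited cells may remain in a pool. The comparison of KO with WT asks which promoters open or close when MORC2 is lost.

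Ribosomal proteins fold around the ribosomal RNAs to form the subunits that decode mRNA and join amino acids, and a growing cell needs them in near-equal amounts. Their genes are scattered over the genome, and most are transcribed in every cell type. Most of their mRNAs begin with a C followed by a run of pyrimidines, the 5′ terminal oligopyrimidine (TOP) sequence, through which mTOR signalling controls their translation. Several have a paralogue, a second gene for a variant of the same protein, and many hold small nucleolar RNAs (snoRNAs), guides for the modification of ribosomal RNA, in their introns.

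The sequences around 9 starts are shown because most carry the feature that members shared most often, the TOP-like start. They also set 3 paralogues, not all of which carry it, beside their parent genes. RPL39 had the longest run of pyrimidines, RPLP1 encodes a stalk protein, and RPS16 is among the members with the largest differences between KO and WT. Sequences are from RefSeq on GRCh38.p14, are read 5′ to 3′ on the strand of the gene, and hold 60 bases before the first start listed for the gene and 20 bases from it onwards, which belong to the first exon. Capitals mark a run of at least 5 pyrimidines that begins with a C within 5 bases of the annotated start.
RPL39 (chrX:119791611-119791690, minus strand): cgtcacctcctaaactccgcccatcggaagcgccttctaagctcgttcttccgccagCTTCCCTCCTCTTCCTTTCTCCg
RPLP1 (chr15:69452758-69452837, plus strand): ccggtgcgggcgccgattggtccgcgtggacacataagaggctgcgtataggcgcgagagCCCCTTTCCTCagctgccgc
RPS16 (chr19:39435930-39436009, minus strand): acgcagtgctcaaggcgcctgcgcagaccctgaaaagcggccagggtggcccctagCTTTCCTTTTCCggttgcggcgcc
RPL22 (chr1:6199576-6199655, minus strand): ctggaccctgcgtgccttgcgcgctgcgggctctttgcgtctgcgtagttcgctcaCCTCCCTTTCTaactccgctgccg
RPL22L1 (chr3:170870176-170870255, minus strand): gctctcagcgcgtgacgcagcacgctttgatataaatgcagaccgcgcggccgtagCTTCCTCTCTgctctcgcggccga
RPL26 (chr17:8383174-8383253, minus strand): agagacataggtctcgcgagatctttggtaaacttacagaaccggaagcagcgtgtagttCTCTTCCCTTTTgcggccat
RPL26L1 (chr5:172958669-172958748, plus strand): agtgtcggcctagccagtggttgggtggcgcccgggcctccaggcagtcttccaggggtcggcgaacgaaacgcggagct
RPS27 (chr1:153990702-153990781, plus strand): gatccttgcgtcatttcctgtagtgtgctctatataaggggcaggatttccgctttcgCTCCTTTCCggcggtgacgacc
RPS27L (chr15:63157458-63157537, minus strand): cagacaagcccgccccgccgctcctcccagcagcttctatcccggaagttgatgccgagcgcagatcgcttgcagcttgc

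Total promoter counts were between 9435801 and 15152636 per library, of which 20.6% to 35.1% fell on 37 rows of the mitochondrial genome. KO replicate 2 was the deepest library and had the lowest mitochondrial share. Counts were scaled to library size as CPM with trimmed mean of M-values (TMM) factors, and 27647 rows passed the filter on low counts. Among the marker genes chosen for the cell line, the neural and mesenchymal promoters of VIM and CDH2 were open, at 73.0 to 85.8 CPM and 56.4 to 64.2 CPM, and the kidney promoters of PAX2 and LHX1 lay at 5.86 to 7.89 CPM and 17.9 to 20.4 CPM. Markers of other cell types were near the low end, with PTPRC at 1.11 to 1.77 CPM, ALB at 1.66 to 2.44 CPM and HBB at 1.19 to 2.44 CPM, while CD3E reached 2.87 CPM and INS 5.82 CPM. The keratin promoters of KRT8 and KRT18, at 8.09 to 9.97 CPM, lay little above these, and the housekeeping promoters of ACTB and GAPDH held 65.8 to 109 CPM. The MORC2 promoter held 37.0 and 37.5 CPM in the KO libraries against 25.7 and 29.6 CPM in the WT libraries, which differed by 0.43 ± 0.087 (SE) on the log2 scale (edgeR quasi-likelihood test, Benjamini-Hochberg adjusted p = 0.000279). This count does not check the knockout, since guide RNAs cut the gene and do not remove its promoter.

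All 83 members passed the filter, and their lowest value in any library, 12.1 CPM, was above every value of these markers of other cell types. Their raw counts ran from 121 to 1641 fragments, with a median of 422 in KO replicate 1, 660 in KO replicate 2, 369 in WT replicate 1 and 365 in WT replicate 2, against 162, 250, 142 and 132 over all rows. Together they took 0.477% and 0.468% of the nuclear count of the KO libraries and 0.482% and 0.503% of that of the WT libraries. The mean WT level of a member had a median of 39.3 CPM, against 16.7 CPM over all tested promoters, and the median member stood at the 75.1st percentile of tested promoters. Levels are compared between genes because each window has the same length in the description the study gives. Copy number, which can differ between loci in this line, was not corrected for. A higher level between genes therefore need not mean a more open promoter. From the least to the most open member the WT means differed from 14.7 CPM to 89.9 CPM.

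RPL7, a large-subunit protein with an rRNA-binding N-terminal arm, had the most open promoter of the set, with 93.5 and 96.2 CPM in the KO libraries and 88.1 and 91.7 CPM in the WT libraries. RPL15, a core protein of the large subunit, followed with 77.5 and 82.6 CPM in KO and 84.2 and 79.9 CPM in WT. Also among the 5 highest by WT mean were RPL39 (67.2 and 70.0 in KO, 63.8 and 68.1 in WT) and RPL23A (63.9 and 61.0 in KO, 66.5 and 65.1 in WT), both in CPM. RPL39 and RPL23A line the end of the peptide tunnel. Their order changed from library to library, and they were not separated by their spread. At the other end stood RPL3L, a muscle paralogue of RPL3, with 12.1 and 15.0 CPM in KO and 16.0 and 13.4 CPM in WT. RPL17, a protein of the tunnel exit, held 13.5 and 14.8 CPM in KO and 14.7 and 16.9 CPM in WT. RPL11, which travels to the ribosome with the 5S rRNA and can bind MDM2, held 15.5 and 15.7 CPM in KO and 15.7 and 16.2 CPM in WT. RPL35A had 16.3 and 17.3 CPM in KO and 18.7 and 20.4 CPM in WT, and RPL38, known for its part in the translation of Hox mRNAs, had 19.6 and 19.9 CPM in KO and 17.8 and 21.7 CPM in WT. The low end therefore mixed the tissue-restricted RPL3L with genes of proteins that every ribosome carries, and the order of RPL3L, RPL17 and RPL11 was not fixed by the libraries.

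**Figure D1:**
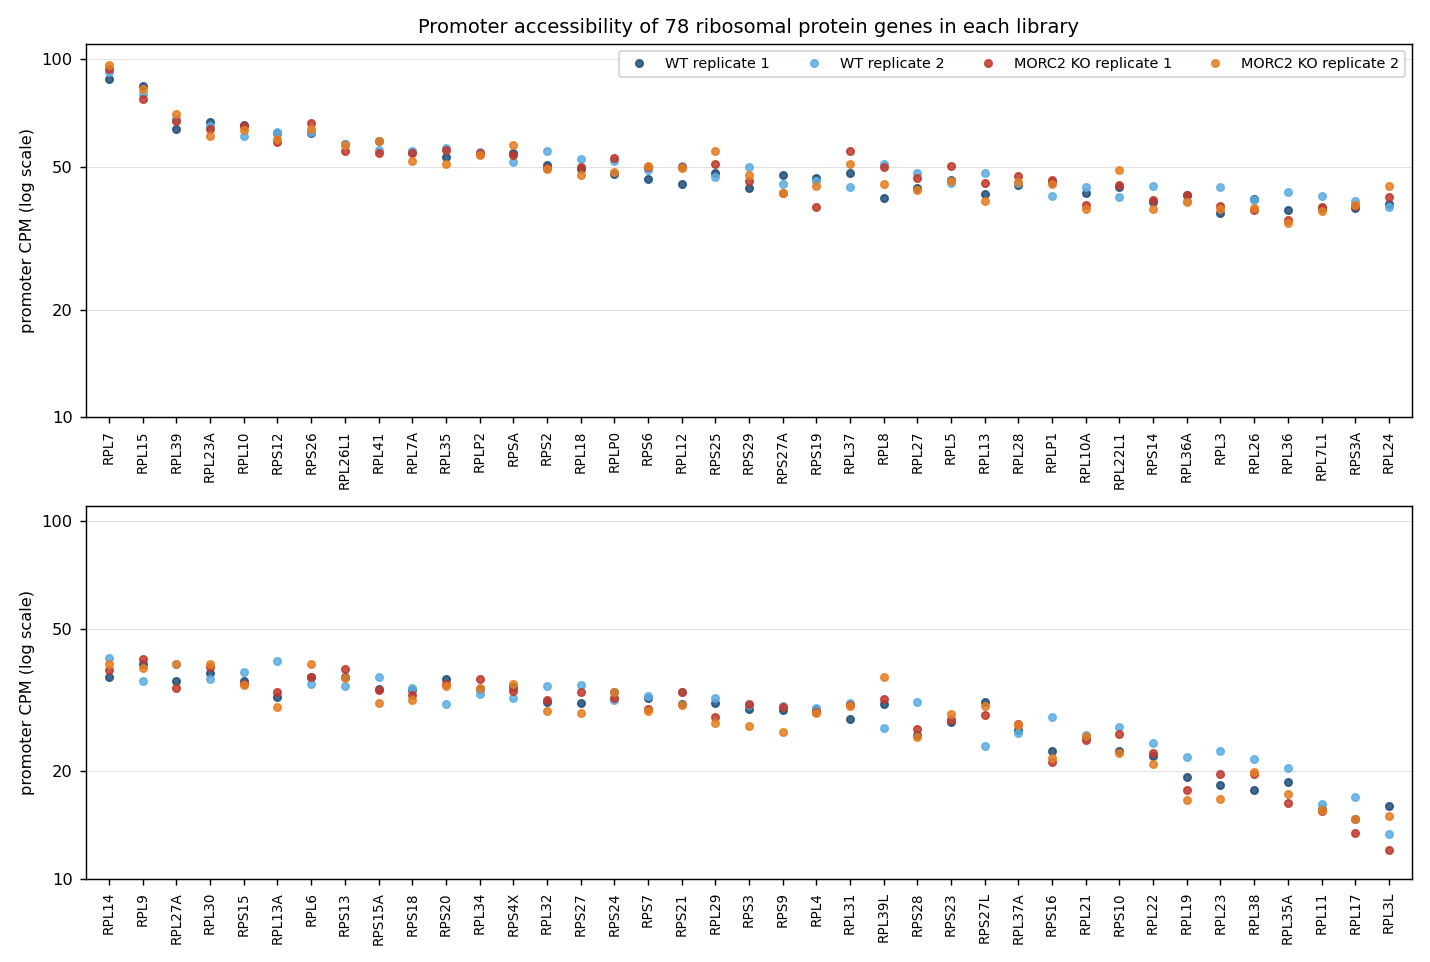
Promoter accessibility of 78 of the 83 ribosomal protein genes in each library, in TMM-scaled CPM on a log axis, ordered by the mean of the 2 WT libraries; each point is 1 library and its colour gives the group and replicate. The points of the 4 libraries lie close together for most genes, from RPL7 at 88.1 to 96.2 CPM down to RPL3L at 12.1 to 16.0 CPM.

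Loss of MORC2 was accompanied by small differences at these promoters. Across the 83 members the log2 fold change of KO against WT ran from -0.27 to 0.27, and 81 members lay within 0.25 of 0 in either direction. The 95% interval of all 83 lay within 0.5 of 0. Of 27647 tested promoters, 20557 lay within 0.25 of 0 and 16735 had such an interval. Of the 10986 other promoters of like abundance described below, 10241 and 10773 did so. These counts are therefore not particular to members. One member, RPL39L, was called at an adjusted p below 0.05, which is 1.20% of members, against 4.45% of all tested promoters (3.45% higher in KO). Of the other promoters of like abundance, 6.05% were called. At an unadjusted p below 0.05 there were 10 members, 4 of them higher in KO. This is 12.0%, against 20.3% of tested promoters and 22.6% of the other promoters of like abundance. P-values measure the spread between these libraries only. For a single promoter, 2 libraries in each group allow an exact two-sided permutation p of 0.333 at the lowest. The KO libraries lay above both WT libraries for 12 members (25.2% of tested promoters did so) and below both for 20 members (25.4% of tested promoters), and the groups overlapped for 51 members. Of the 10986 other promoters of like abundance, the KO libraries lay above both WT libraries in 4358 and below both in 1317. For the 72 members in that range of abundance these counts were 10 and 17.

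The difference between KO and WT was set beside the difference between replicates. The median absolute log2 ratio of a member was 0.095 between the WT libraries, 0.076 between the KO libraries and 0.072 between the group means. Over all tested promoters these values were 0.133, 0.106 and 0.135. A mean of 2 libraries varies less than a single library, so the ratio of group means is not a like measure. WT replicate 2 stood highest, with a median deviation of a member from its 4-library mean of 0.046 on the log2 scale, against -0.019 in WT replicate 1, -0.0035 in KO replicate 1 and -0.021 in KO replicate 2. The share of a library that fell on the mitochondrial genome was also highest in WT replicate 2 and lowest in KO replicate 2, and its part in these values was not tested.

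The median log2 fold change over the members was -0.018, beside -0.017 over all tested promoters. With libraries scaled by their total count alone it turned to 0.12, as did that of all tested promoters, since this scaling shifts every promoter by about the same amount. For 33 of the 83 members the log2 fold change was above 0, 39.8% against 46.7% of tested promoters. The median was -0.012 for the large subunit, with 21 of 51 above 0, and -0.047 for the small subunit, with 12 of 32 above 0. Over all tested promoters, however, the fold change followed abundance. In 10 classes of equal size by mean CPM, the median log2 fold change went from -0.29 in the lowest class to 0.083 in the highest.

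Members sat in the upper part of that range, 72 of them in classes 6 to 9. In these classes the members' median was -0.014 with 40.3% above 0, while the other 10986 promoters of the same classes had a median of 0.058 with 67.2% above 0. The members' median was therefore 0.072 below that of promoters of like abundance (-0.072 as a difference of log2 fold changes). The difference was negative under each of the 17 other settings tried, from -0.14 without WT replicate 1 to -0.053 without KO replicate 2. When the trend with abundance was removed by loess offsets, the members' median became -0.081 with 14 of 83 above 0, against 0.0010 over all tested promoters. These are descriptions of 4 libraries and carry no test, and the comparison by abundance was chosen after the trend was seen.

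**Figure D2:**
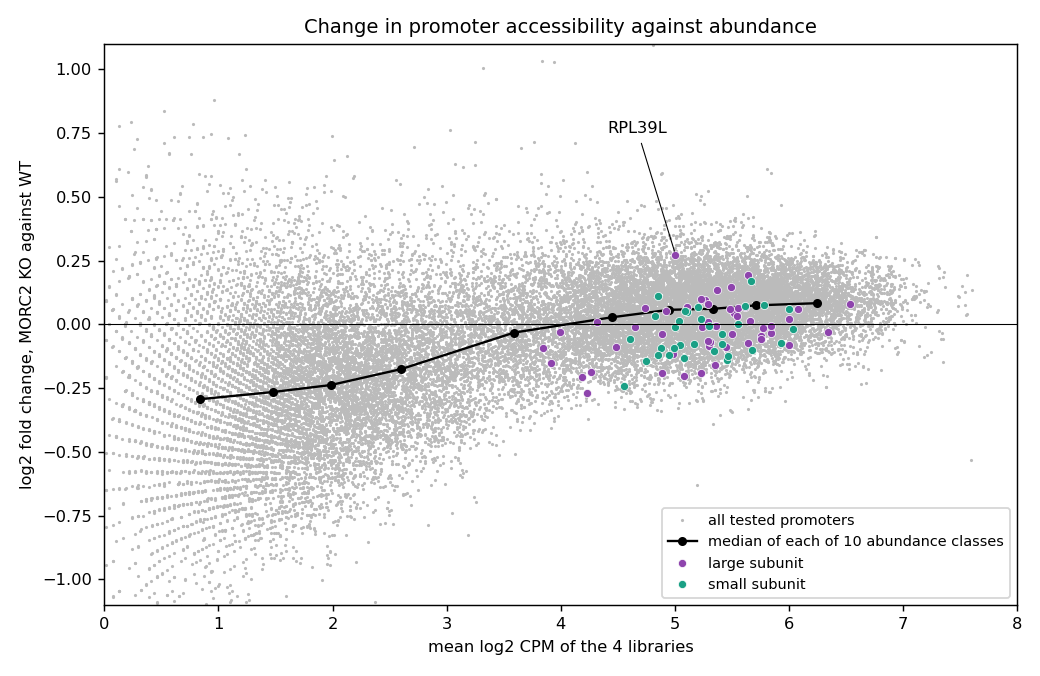
Log2 fold change of KO against WT (vertical axis) against the mean log2 CPM of the 4 libraries (horizontal axis) for all 27647 tested promoters in grey, with the 51 large-subunit members in purple and the 32 small-subunit members in green; the black line joins the medians of 10 abundance classes. Most members lie around 0 while the class medians at their abundance are above 0, and RPL39L is the highest member at 0.27; a few tested promoters fall outside the axes.

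RPL39L encodes a paralogue of RPL39, a small protein of the tunnel through which the growing peptide leaves the ribosome, and its transcript is known from testis and from tumour cells. Its promoter held 347 and 626 fragments in KO and 297 and 238 in WT, or 31.8 and 36.7 CPM against 30.8 and 26.4 CPM. Both KO libraries were above both WT libraries, though KO replicate 1 exceeded WT replicate 1 by little. The log2 fold change was 0.27 ± 0.087 (SE), with a 95% interval from 0.10 to 0.45 and an adjusted p of 0.0436 (edgeR quasi-likelihood test, Benjamini-Hochberg over 27647 rows). Over the alternatives tried the adjusted p of RPL39L ran from 0.0104 without WT replicate 1 to 0.978 with DESeq2. Without KO replicate 2 the log2 fold change was 0.16 (adjusted p = 0.656, edgeR), and without WT replicate 2 it was 0.17 (adjusted p = 0.449, edgeR), so the call rested on these 2 libraries. The next row in gene order, ST6GAL1, held 329 and 514 fragments in KO and 255 and 226 in WT, within 25% of RPL39L in each library, with a log2 fold change of 0.23 ± 0.092 (SE), at an adjusted p of 0.133 by edgeR; whether their windows share fragments was not tested.

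Among the other members whose groups did not overlap, the largest differences were in RPL19 and RPS16. RPL19, another protein beside the tunnel exit, held 17.8 and 16.6 CPM in KO and 19.3 and 21.9 CPM in WT, a log2 fold change of -0.27 ± 0.11 (SE), at an adjusted p of 0.134 by edgeR. RPS16, a small-subunit protein whose tail reaches the decoding region, held 21.2 and 21.8 CPM in KO and 22.7 and 28.4 CPM in WT, a log2 fold change of -0.24 ± 0.099 (SE), at an adjusted p of 0.140 by edgeR. RPL19 ran from -0.36 without WT replicate 1 to -0.18 without WT replicate 2. WT replicate 2 stood apart from the other 3 libraries in RPS16. Without WT replicate 1 this promoter was called at -0.39 (adjusted p = 0.0203, edgeR) with 5.89% of tested promoters called in that fit, and leaving out WT replicate 2 instead gave -0.077. RPL13A, a large-subunit protein also known outside the ribosome from the silencing of inflammatory mRNAs, was called in the same way without WT replicate 1, at -0.36 (adjusted p = 0.00963, edgeR), but its 4 libraries of 33.3 and 30.3 CPM in KO and 32.3 and 40.5 CPM in WT overlapped.

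Further members with separate groups were lower in KO by smaller amounts. RPL35A, one of the genes mutated in Diamond-Blackfan anaemia, had a log2 fold change of -0.21 ± 0.11 (SE) from the levels given above. RPL36, of the large subunit, held 35.6 and 34.8 CPM in KO and 37.9 and 42.4 CPM in WT (log2 fold change -0.19). RPL29, also known as a heparin-binding protein, held 28.3 and 27.2 CPM in KO and 31.1 and 32.1 CPM in WT (log2 fold change -0.19). RPL10A, of the protruding L1 arm that guides spent tRNA out, held 39.1 and 38.2 CPM in KO and 42.4 and 43.9 CPM in WT (log2 fold change -0.16). Leaving out WT replicate 2 brought RPL36 to -0.11. None of RPL35A, RPL36, RPL29 and RPL10A passed the test, with adjusted p from 0.149 to 0.273 (edgeR).

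In the other direction stood RPL37, RPS25 and RPL22L1. RPL37, a zinc-binding large-subunit protein, held 55.2 and 50.9 CPM in KO and 48.1 and 44.0 CPM in WT, a log2 fold change of 0.19 ± 0.073 (SE), at an adjusted p of 0.0965 by edgeR, the lowest adjusted p after RPL39L. RPS25, which several viral internal ribosome entry sites need, held 51.0 and 55.2 CPM in KO and 48.1 and 46.7 CPM in WT (log2 fold change 0.17, adjusted p = 0.150, edgeR), and 0.11 without KO replicate 2. Its count cannot be told apart from that of TRAPPC4, whose start lies under 2 kb away and whose row held 549 and 939 fragments in KO and 464 and 431 in WT, against 556 and 941 in KO and 463 and 422 in WT for RPS25.

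Grouped by role in the ribosome, the members differed little between KO and WT. The lateral stalk, made of RPLP0, RPLP1 and RPLP2 on a base with RPL12, recruits the elongation factors, and none of its 4 promoters had separate groups. RPLP0 held 52.8 and 48.5 CPM in KO and 47.9 and 51.9 CPM in WT. RPLP1 held 46.0 and 44.7 CPM in KO and 45.3 and 41.5 CPM in WT, and RPLP2 held 54.5 and 53.8 CPM in KO and 54.4 and 54.9 CPM in WT. RPL12 held 50.0 and 49.7 CPM in KO and 44.9 and 50.4 CPM in WT. Their log2 fold changes ran from -0.016 to 0.066, with a median of 0.037 that turned to -0.030 with loess offsets, 0 of the 4 being above 0. RPL5 and RPL11 form a particle with the 5S rRNA that joins the large subunit and, when free, stabilises p53. RPL5 held 50.2 and 45.6 CPM in KO and 45.9 and 45.0 CPM in WT (log2 fold change 0.064), and RPL11 gave -0.030, so both were within 0.1 of 0.

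For 3 proteins that reach towards the peptidyl transferase centre, RPL3, RPL8 and RPL10, the groups overlapped and the log2 fold changes ran from -0.069 to 0.033. The 9 proteins around the tunnel exit had a median of -0.080, with 3 above 0 and RPL19 the lowest. The 7 proteins along the mRNA path and the decoding site had a median of -0.092, with 2 above 0. RPSA, a small-subunit protein also known as the laminin receptor precursor, held 54.0 and 57.6 CPM in KO and 54.7 and 51.5 CPM in WT (log2 fold change 0.078). RPS6, the substrate of S6 kinase, held 49.9 and 50.2 CPM in KO and 46.3 and 49.0 CPM in WT (log2 fold change 0.073), its groups being separate by a narrow margin. For 9 genes mutated in Diamond-Blackfan anaemia, not a full list of such genes, the median was -0.056. Among them RPS19, the gene most often mutated in that disease, held 38.6 and 44.3 CPM in KO and 46.6 and 45.6 CPM in WT (log2 fold change -0.14 ± 0.075 SE, adjusted p = 0.279, edgeR), and leaving out KO replicate 1 brought it to -0.039. For the 24 members that host snoRNAs the median was -0.028, with 8 above 0. With total-count scaling the medians of the tunnel, mRNA path, anaemia and snoRNA groups turned to 0.055, 0.049, 0.083 and 0.11. No member of these role groups was called, against 4.45% of tested promoters, and 2 snoRNA hosts, RPL37 and RPL13A, and the tunnel protein RPL19 had an unadjusted p below 0.05.

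The 6 paralogues and their parents allow promoters of sister genes to be compared within a library. RPL22L1 was more open than RPL22 in all 4 libraries, at 44.5 and 49.0 CPM in KO and 43.8 and 41.1 CPM in WT against 22.6 and 21.0 CPM in KO and 22.1 and 23.9 CPM in WT for RPL22. The ratio of RPL22L1 to RPL22 was 1.97 and 2.33 in KO and 1.98 and 1.72 in WT. The groups did not overlap for RPL22L1, with a log2 fold change of 0.15 ± 0.075 (SE), at an adjusted p of 0.241 by edgeR, and 0.072 without KO replicate 2. RPL26L1 was likewise above RPL26, with ratios of 1.46 and 1.50 in KO and 1.43 in both WT libraries. RPL26L1 itself held 55.3 and 57.6 CPM in KO and 58.1 and 57.8 CPM in WT, and RPL26 held 38.0 and 38.3 CPM in KO and 40.6 and 40.4 CPM in WT. RPS27L, a p53 target, and RPS27 were near each other, with ratios of 0.865 and 1.05 in KO and 1.01 and 0.675 in WT. In WT replicate 2 RPS27L was lowest, at 23.5 CPM against 28.7 and 30.4 CPM in KO and 31.3 CPM in WT replicate 1, and its log2 fold change of 0.11 became 0.34 without WT replicate 1 (adjusted p = 0.0494, edgeR) and -0.072 without WT replicate 2.

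The other paralogues were less open than their parents in every library. RPL39L stood at 0.473 and 0.525 of RPL39 in KO and at 0.484 and 0.387 in WT, so that the ratios overlapped between the groups. RPL7L1, which takes part in ribosome assembly, held 38.7 and 37.7 CPM in KO and 38.3 and 41.4 CPM in WT, between 0.392 and 0.452 of RPL7. RPL3L stood between 0.305 and 0.431 of RPL3, which held 39.0 and 38.2 CPM in KO and 37.1 and 44.0 CPM in WT. RPS27 held 33.2 and 29.1 CPM in KO and 30.9 and 34.8 CPM in WT. The median log2 fold change was 0.040 over the 6 paralogues, 3 of them above 0, and -0.0075 with loess offsets. Over the 6 parents it was -0.077, 2 of them above 0, and 0.058 with total-count scaling. These ratios compare promoter counts, not corrected for copy number, and not amounts of RNA or protein.

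**Figure D3:**
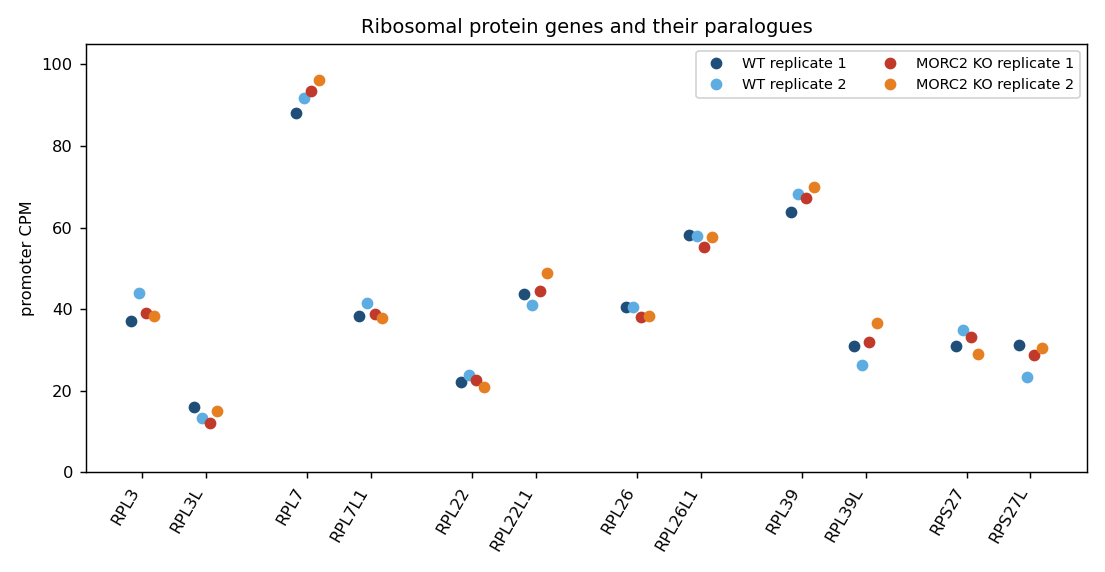
Promoter accessibility in CPM of 6 ribosomal protein genes and their paralogues, each parent to the left of its paralogue, with 1 point per library coloured by group and replicate. RPL22L1 and RPL26L1 lie above their parents in all 4 libraries, RPL3L, RPL7L1 and RPL39L below theirs, and RPS27L has its lowest point in WT replicate 2.

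The promoter sequences were compared with those of other genes. RefSeq promoter sequences of GRCh38.p14, from 250 bases before to 50 bases after the first listed start, were matched to 66 of the 83 members and to 15133 tested protein-coding genes. The members with no matched sequence included RPL23, RPL23A, RPL30, RPL37, RPL39L, RPL3L, RPL5, RPL7, RPL8, RPS15A, RPS2 and RPS20. A TOP-like start, as capitalised above, was found in 51 of the 66 members (77.3%), against 22.3% of tested protein-coding promoters and 21.1% of all 27305 promoters in the table. The run was between 5 and 22 bases long in these members, the longest in RPL39, where it began 3 bases before the annotated start. The annotated first base itself was a C in 71.2% of the members and in 11.2% of tested protein-coding promoters. Counting any start listed for a gene gave 81.8% of members and 28.4% of tested protein-coding promoters. A list of other genes with known TOP mRNAs, mainly translation factors, had a TOP-like start in 6 of 8. The mitochondrial ribosomal proteins, which are not known for TOP mRNAs, had it in 15 of 69 (21.7%).

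The paralogues differed in this feature, as the printed sequences show. RPL22L1 had a run of 10 bases beside 11 in RPL22, whereas RPL26L1 and RPS27L had no such run beside 12 bases in RPL26 and 9 in RPS27. RPL7L1 had none either, at the first listed start. Among the members the TOP-like start did not go with a different response, the median log2 fold change being -0.030 in the 51 with it and -0.031 in the 15 without it. The median WT level was 37.7 CPM with it and 45.0 CPM without it.

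Short sequence motifs were searched on both strands of the same stretch as exact letters. The ETS-family motif CCGGAAG was found in 34.8% of members, in 14.6% of tested protein-coding promoters and in 10.7% of all promoters in the table. The YY1 motif AAGATGG was in 13.6% of members, 6.38% of tested protein-coding promoters and 6.06% of all promoters. Both were more frequent still in the mitochondrial ribosomal protein genes, at 42.0% and 33.3%. The SP-family motif GGGCGG was in 53.0% of members and 59.8% of tested protein-coding promoters (44.6% of all), and the NF-Y motif CCAAT was in 31.8% and 36.3% (35.7% of all). The E-box CACGTG was in 6.06% of members and 8.82% of tested protein-coding promoters (7.43% of all). TATAAA on the sense strand between 40 and 20 bases before the start was in 3 of 66 members (4.55%) and in 3.63% of tested protein-coding promoters (2.50% of all). None of these motifs contains another, but an ETS motif read on the other strand can overlap a pyrimidine run. A match of letters is not evidence that a factor bound there. The median GC content was 59.3% in members and 63.0% in tested protein-coding promoters, and in members it ran from 39.7% to 72.3%. Across the 66 members GC content and log2 fold change had a Pearson r of -0.012, and across the 15133 tested protein-coding promoters, which share the same 4 libraries, r was 0.26. With loess offsets, which remove the trend with abundance, r was -0.057 and -0.081.

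**Figure D4:**
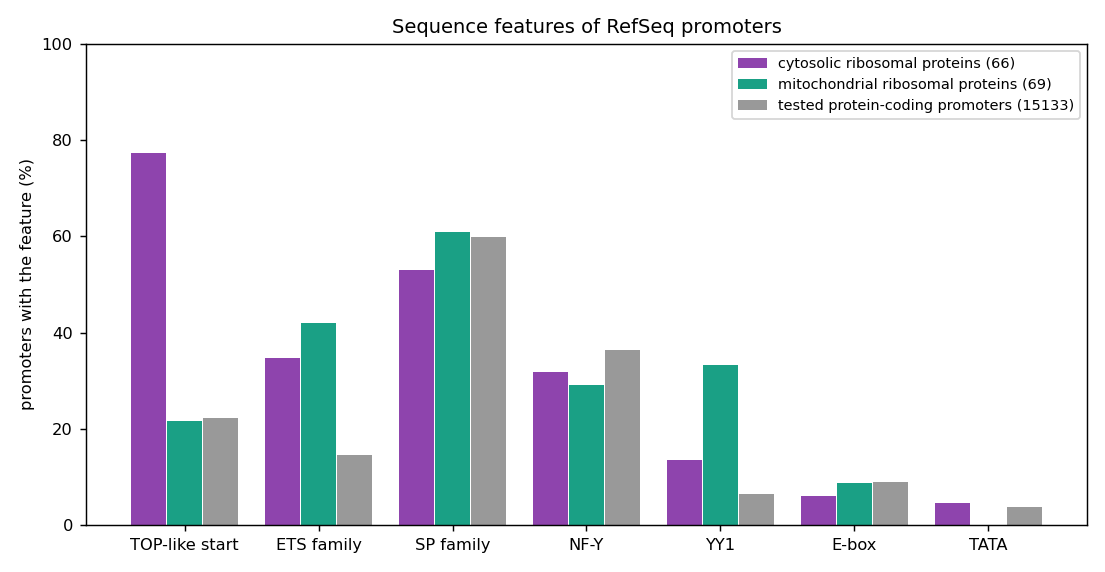
Share of promoters (vertical axis, in percent) with a TOP-like start or with each of 6 motifs, for 66 cytosolic ribosomal protein genes, 69 mitochondrial ribosomal protein genes and 15133 tested protein-coding genes. The TOP-like start is in 77.3% of the cytosolic set against 21.7% and 22.3% of the others, and the ETS and YY1 motifs are highest in the mitochondrial set at 42.0% and 33.3%.

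Some ribosomal protein promoters lay close to the start of another gene, so that one window can hold fragments of both. How often other promoters do so was not counted. Of the 66 members with a listed start, 21 had another gene's start under 2 kb away and 45 had none. For 19 of the 21 the neighbour's count was within 25% in every library. Pairs of this kind were RPLP0 with PXN-AS1, RPL35 with ARPC5L, RPL12 with LRSAM1, RPL9 with LIAS and RPS18 with VPS52, each within 2% in every library, and their accessibility cannot be assigned to one gene. RPL17 and RPL36A had the same counts as the rows of their readthrough transcripts. RPL35A and DRC9, in contrast, differed by up to 63.6%, and RPL41 and ZC3H10 by up to 48.6%. The median log2 fold change was -0.0094 in the 21 members with such a neighbour and -0.038 in the 45 without one.

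Other genes of translation were looked at as fixed lists. The 4 cytosolic ribosomal proteins that the symbol rule leaves out included FAU, whose protein is made as a fusion to a ubiquitin-like domain. FAU held 42.6 and 40.8 CPM in KO and 43.8 and 42.2 CPM in WT (log2 fold change -0.052, groups overlapping). RACK1, a scaffold on the small subunit head, gave 0.028, and RPL36AL, a retrocopy that encodes a near-identical protein to RPL36A, gave 0.13. None of these 4 was called. Of 77 mitochondrial ribosomal proteins, which build the separate ribosome of mitochondria, 3 were called (3.90%, against 4.45% of all tested promoters), and all 3 were higher in KO. MRPS30 held 56.6 and 56.8 CPM in KO and 45.7 and 43.6 CPM in WT, a log2 fold change of 0.34 ± 0.072 (SE), at an adjusted p of 0.000669 by edgeR. MRPL50 and MRPS9 gave 0.24 (adjusted p = 0.0137, edgeR) and 0.23 (adjusted p = 0.0307, edgeR). The median over the 77 was 0.040, with 44 above 0, and -0.023 with loess offsets, with 34 above 0. The call of MRPS30 was lost with total-count scaling, with DESeq2 and without KO replicate 2. Those of MRPL50 and MRPS9 were lost under the same settings and also with loess offsets, without KO replicate 1 and without WT replicate 2. MRPS9 was lost besides with the replicate block, limma-trend, the edgeR 4 fit and a mean count of at least 50.

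Among 31 ribosome assembly factors 1 was called (3.23%, against 4.45% of all tested promoters), GAR1 of the H/ACA snoRNP, with 41.3 and 43.5 CPM in KO and 37.5 and 33.1 CPM in WT, a log2 fold change of 0.27 ± 0.079 (SE), at an adjusted p of 0.0276 by edgeR. Among 14 RNA polymerase I factors 1 was called (7.14%), the subunit POLR1B, with 58.6 and 59.4 CPM in KO and 50.4 and 50.9 CPM in WT, a log2 fold change of 0.22 ± 0.071 (SE), at an adjusted p of 0.0429 by edgeR. A list of 14 other genes with TOP mRNAs held translation factors and also HNRNPA1, NAP1L1 and TPT1. None of the 14 was called, and EEF1B2 and NAP1L1 had an unadjusted p below 0.05 (14.3%, against 20.3% of tested promoters). The median of this list, 0.022, turned to -0.021 with loess offsets. The call of GAR1 was lost when WT replicate 2 was left out (log2 fold change 0.18) and when KO replicate 2 was left out (0.23), and with total-count scaling, loess offsets, DESeq2 without its independent filter, the replicate block, limma-trend, a mean count of at least 50 and thinning. That of POLR1B was lost whichever library was left out, at log2 fold changes from 0.21 to 0.25, and under these same settings and the edgeR 4 fit. These lists and the members were measured in the same 4 libraries, and no difference between lists was tested.

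**Figure D5:**
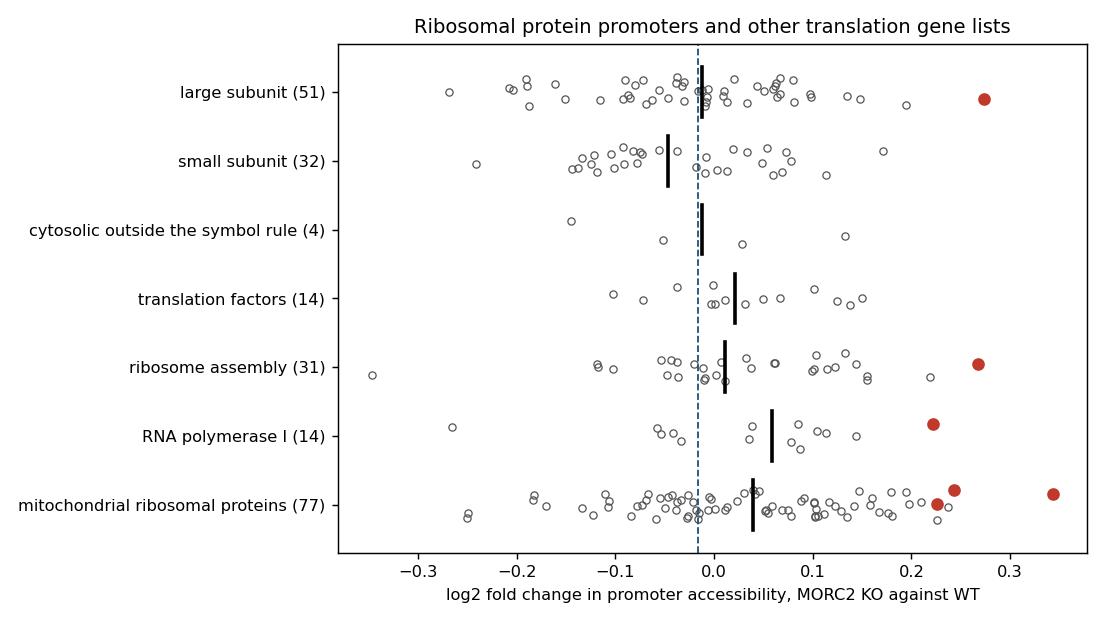
Log2 fold change of KO against WT (horizontal axis) for the 51 large-subunit and 32 small-subunit members and 5 other lists of translation genes; each circle is 1 promoter, filled red where the adjusted p was below 0.05, black bars are list medians and the dashed line is the median of all tested promoters at -0.017. Vertical position within a list carries no value. The list of translation factors also holds HNRNPA1, NAP1L1 and TPT1. RPL39L is the filled point of the large subunit at 0.27, and the 5 filled points of the other lists lie between 0.22 and 0.34.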

How the data were processed

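ATAC-seq libraries of 2 WT and 2 MORC2 KO HEK293T samples were analysed. Per the study's methods, the authors used Trim Galore on the read pairs, mapped these to the CHM13 assembly with bowtie2, kept properly paired reads of high mapping quality, and took out PCR duplicates by Picard. The deposited table holds raw counts, with a row for each NCBI Gene ID and no scaling. Promoter windows are said to span 2 kb at gene starts. The study's methods describe csaw counts of fragment midpoints in genome-wide windows, tested by window and summarised to promoters; whether csaw or featureCounts (Subread 2.0.6), named in the submitters' processing notes, made this promoter table is not given in the sources used here. Processed pseudogenes can share reads with ribosomal protein exons, and how this touched the counts was not tested. The deposited WT peaks, on CHM13, were not used here.

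Symbols came from RefSeq for 28763 of 28775 IDs, on GRCh38.p14, whose gene coordinates were not used beyond order and neighbours. Counts were filtered (filterByExpr), scaled (TMM) and tested with edgeR 4.0.16 (R 4.3.3) by the legacy quasi-likelihood fit, without a block, directly on promoter counts. Filter, scaling, kind of test and threshold follow the study's methods, the testing by promoter does not. The study reported far fewer differentially accessible genes than the 1229 promoters called here, so the shares called here are not those of the study. The test here used Benjamini-Hochberg adjustment over 27647 rows and a threshold of 0.05. Intervals are at 95% and replicates are given by library. DESeq2 1.42.0 and limma 3.58.1 were alternatives. The fits were tested on simulated data. Replicates of a group differed by more than sampling noise (chi-square per degree of freedom 1.20 in KO and 1.32 in WT). Total counts of 9435801 to 15152636 gave members a median SE of 0.079 on the log2 scale.

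Members, gene lists and motifs were chosen with earlier results of these data known. Named were the called members, the 10 largest changes with separate groups, the 5 highest and 5 lowest WT levels, fixed role groups and paralogues, the genes outside the symbol rule, MORC2, and called genes of the other lists. RPL13A was named after its values were seen. Pairs of neighbours were also named, and the share of first bases that are C and the count over any listed start were added, after the data were seen. Some genes are not reported here by name.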

Additional observations from a re-analysis of the deposited data

How the results depend on the processing

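The number of members called, 1, became 0 with scaling by total count, loess offsets, a mean count of at least 50, the replicate block, the edgeR 4 fit, limma-trend, both DESeq2 runs, thinning to equal nuclear depth, a threshold of 0.01 and leaving out members whose row resembled the next one in gene order (39 stayed, RPL39L not among them), 2 at a threshold of 0.1, and between 0 and 4 with a library left out. Several of these fits called little anywhere: 0.0723% of tested promoters with total count, 0.106% and 0.0253% with DESeq2 and without its independent filter, 1.45% with loess offsets, 2.48% after thinning, 2.59% with limma-trend, 2.77% with the block, 3.04% with edgeR 4 and 3.97% with the higher count minimum. At an unadjusted p below 0.05 there were 2 members with total count (10.7% of tested promoters), 18 with loess offsets (13%), 13 with the higher count minimum (19.6%), 8 with the block (19%), 11 with edgeR 4 (19.4%), 11 with limma-trend (19%), 10 after thinning (17.6%) and 0 with DESeq2 (5.16%), whose independent filter gave an adjusted p to 26 of the 83 members; the run without that filter was chosen after seeing the data. The 4 calls without WT replicate 1 were RPL13A and RPS16, lower, and RPL39L and RPS27L, higher, with 5.89% of tested promoters called; without KO replicate 2 the share was 0.148% and without WT replicate 2 it was 0.827%. The 5 calls of the other lists became 0 with total count and both DESeq2 runs, 1 with loess offsets, 2 with the higher count minimum, limma-trend and the block, 3 with edgeR 4 and after thinning, and between 0 and 6 when single libraries were dropped. The cause was not tested.

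Total-count scaling moved the medians of members, large and small subunit to 0.12, 0.12 and 0.090, and that of all tested promoters to 0.12. Loess offsets gave -0.081, -0.070 and -0.099, and the higher count minimum -0.054 and -0.047 for members and large subunit. With a library left out the medians ran from -0.068 to 0.0016, from -0.046 to 0.0040 and from -0.083 to 0.013, and the difference from promoters of like abundance from -0.14 to -0.053. The replicate number as a block gave medians of -0.028 for members and -0.079 for that difference. Same-numbered libraries did not deviate together (correlation -0.00027 over 2 pairs), so the numbers do not pair them. In the window from 100 bases before to 50 after the start, GGGCGG was in 40.9% of members and 48.3% of tested protein-coding promoters, and CACGTG in 1.52% and 5.31%.

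Log2 fold changes near 0 changed sign. With total count these were FAU 0.085, RPL11 0.11, RPL22 0.051, RPL26 0.049, RPL26L1 0.10, RPL3 0.064, RPL3L 0.041, RPL7L1 0.072, RPLP2 0.12 and RPS27 0.048. With loess offsets they were RACK1 -0.045, RPL12 -0.0013, RPL39 -0.016, RPL5 -0.0025, RPL7 -0.0041, RPLP0 -0.056 and RPLP1 -0.0052. The higher count minimum gave RACK1 -0.0070 and RPLP0 -0.022, and thinning gave RPL11 0.016, RPL3 0.029, RPLP0 -0.020 and RPLP2 0.032. With a library left out RACK1 ran from -0.016 to 0.072, RPL12 from -0.017 to 0.15, RPL26L1 from -0.061 to 0.012, RPL3 from -0.19 to 0.056, RPL3L from -0.28 to 0.046, RPLP0 from -0.046 to 0.089, RPLP2 from -0.023 to 0.00090, RPS27 from -0.18 to 0.023 and RPS27L from -0.072 to 0.34.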
